A study of Mus musculus with 7 samples.

Results

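The 70 genes described here encode heat shock proteins and chaperones: the small HSP, HSP110, HSP70 and HSP90 families, the chaperonins, and the J proteins of classes DNAJA, DNAJB and DNAJC. They were chosen by gene symbol, and a mean of at least 1 CPM (reads of a gene per 1000000 reads on listed genes) over the 7 libraries was required. Of 81 symbols of these families among the 26607 listed genes, 70 reached that level and 11 did not. The RNA-seq data compare C2C12 myotubes given electrical pulse stimulation (EPS), an in vitro model of muscle contraction, with unstimulated control myotubes. C2C12 is an established myoblast line from mouse muscle, and serum withdrawal makes its cells fuse into multinucleate myotubes. Both groups were cultured in six-well plates and differentiated for 3 days. The EPS group (n = 4, replicates 1 to 4) was then pulsed at 1 Hz for 24 h and rested for 1 h, and the control group (n = 3, replicates 1, 3 and 4) received no stimulation. The labels name no genotype, drug or other agent for either group. They do not say whether the replicates were separate cultures, so a p-value here measures the spread between these samples, which may be technical.

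Chaperones bind unfolded proteins and keep them from aggregating. Small HSPs hold such proteins without using ATP, while HSP70 binds and releases them in cycles that J proteins start and HSP110 proteins reset by exchanging the nucleotide. HSP90 finishes the folding of kinases, receptors and, in muscle, myosin, and the ring-shaped chaperonin CCT folds actin and tubulin. Heat and other stress raise the inducible members of these families through the transcription factor HSF1, and in muscle several small HSPs bind to the contractile apparatus.

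The libraries held 16616917 to 22120641 reads on listed genes. Control replicate 4 stood apart, since only 359 of its genes carried 1 to 5 reads (2670 to 3181 genes elsewhere). All 13 myotube markers on the marker list were present, 11 of them lower in mean in the EPS group, and their sum was 19784 to 24685 CPM in the control libraries and 13104 to 21087 CPM in the EPS libraries. The 9 markers of myoblasts and dividing cells summed to 496 to 510 CPM and 453 to 979 CPM, with the highest sum in EPS replicate 4. Of these 9, 4 had higher means in the EPS group, among them the dividing-cell genes Mki67, Ccnb1 and Top2a, and 5 lower, among them Myod1 and Id1, in which every EPS library lay below every control library. Malat1, a nuclear RNA followed as a sign of RNA quality, was at 4821, 3062 and 4039 CPM in the control libraries and 1729, 2124, 3005 and 2706 CPM in the EPS libraries. Here too every EPS library lay below every control library, with a log2 difference of -0.74 ± 0.45 (SE, adjusted p = 0.586 in limma). The part of these genes in the chaperone values was not tested. Of 10 markers of other lineages, 9 stayed under 1 CPM in every library. In these bulk samples, fewer cells of a type and less RNA per cell cannot be told apart. Over the 12256 genes with a mean of at least 1 CPM, the deposited CPM gave a median log2 difference (EPS minus control) of 0.10. Quantile normalization brought this median to 0.0052, and median-of-ratios scaling to -0.0048. Differences are therefore read against 0.10. The split of calls over all genes moved as well, from 68.8% higher with the deposited CPM to 51.6% higher with quantile normalization.

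The chaperones leaned upwards in the EPS group. Of the 70 members, 56 (80%) had a higher mean on the log2(CPM + 1) scale in the EPS group and 14 a lower one, while 63.3% of all tested genes and 63.6% of genes of at least 1 CPM had a higher one. Their median log2 difference was 0.25, against 0.10 over all genes of at least 1 CPM and 0.041 over all 19144 genes tested, and 44 members lay above 0.10. Without both libraries numbered 4, an alternative chosen after seeing the data, the members' median was 0.15 against 0.089 over genes of at least 1 CPM. Under quantile normalization 47 of the 70 (67.1%) were higher, against 50.8% of genes of at least 1 CPM, and under median-of-ratios scaling 44 (62.9%), against 49.3%. The members' median was then 0.16 and 0.13, beside all-gene medians near 0. At the threshold for a differentially expressed gene, or DEG (P under 0.01 in limma and more than 2-fold), 2 members were up-regulated, Hspb1 and Hsph1, and none was down-regulated. Without EPS replicate 4, Hspb1 alone was up-regulated. In limma these thresholds called 0.966% of all tested genes higher and 0.439% lower, or 1.49% and 0.661% of the genes of at least 1 CPM. By the same thresholds edgeR called 4 members higher and 1 lower (Hspb8), beside 1.72% and 1.57% of all tested genes, and DESeq2 called 3 higher and 0 lower, beside 1.66% and 1.4%.

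No member reached an adjusted p under 0.05 in limma (Benjamini-Hochberg over all 19144 genes), while 14 members had an unadjusted P under 0.05, 11 of them higher and 3 lower in the EPS group. Of all tested genes 0.141% reached that adjusted p and 11.6% that unadjusted P (12.7% of genes of at least 1 CPM). On the recovered reads, edgeR's quasi-likelihood test gave 3 members an adjusted p under 0.05 (Hspb1, Hsph1 and Dnajb5) and DESeq2 gave 5 (these and Dnajc1 and Hspa2). The shares over all genes with an adjusted p were 1.51% of 19144 in edgeR and 3.52% of 14305 in DESeq2. In 13 members, or 18.6%, every EPS library lay above every control library, against 7.76% of all tested genes and 9.18% of genes of at least 1 CPM. In 3 members, or 4.29%, every EPS library lay below every control library, against 2.85% and 3.49%. Under median-of-ratios scaling these counts became 6 (8.57%) and 5 (7.14%), against 5.4% and 4.48% of all tested genes. Under quantile normalization they became 10 (14.3%) and 4 (5.71%), against 4.99% and 4.46%. Shares of genes of at least 1 CPM, the level required of members, were not computed under these scalings. With the deposited CPM they exceeded the shares of all tested genes.

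**Figure D1:**
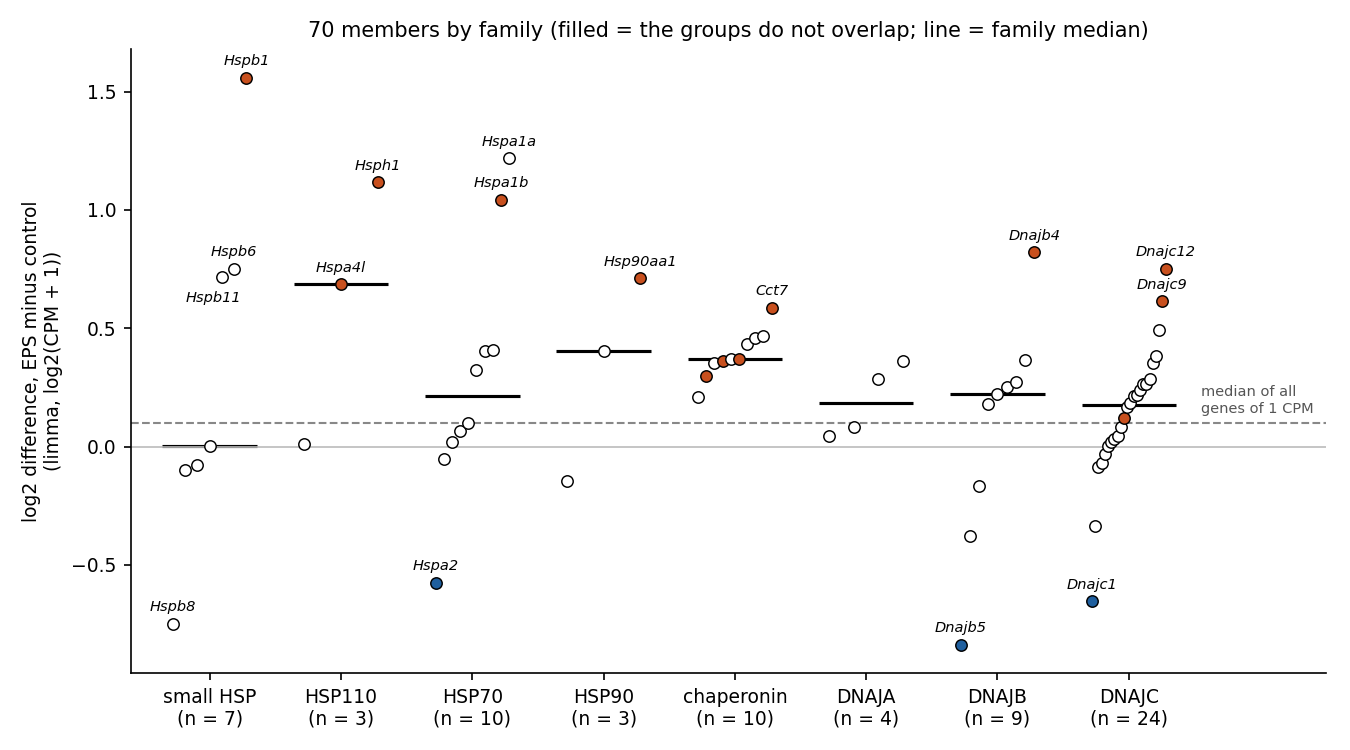
Log2 difference (EPS minus control, limma on log2(CPM + 1)) of each of the 70 members, by family. Each point is a gene, filled where the 3 control and 4 EPS libraries do not overlap, the black line is the family median and the dashed line the median of all genes of at least 1 CPM (0.10); the chaperonins all lie above the dashed line, while the small HSPs run from -0.75 to 1.56.

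Among the small HSPs, Hspb1 (chr5:135887919-135889563, + strand in GRCm38 by GENCODE M21) encodes the stress-inducible holdase HSP25, which also binds actin filaments. Values are given in the order of control replicates 1, 3 and 4 and EPS replicates 1 to 4. Hspb1 was at 118, 149 and 114 CPM in the control libraries and 206, 496, 281 and 678 CPM in the EPS libraries. All 4 EPS libraries lay above all 3 control libraries, and within the EPS group replicates 2 and 4 were well above replicates 1 and 3. The mean was 3.27-fold higher in the EPS group, and the log2 difference was 1.56 ± 0.38 (SE), with P = 0.0027 and adjusted p = 0.154 in limma and an exact permutation p of 0.0857. Hspb1 passed the DEG threshold in each of the 7 fits that left out 1 library, with differences from 1.27 to 1.84. It did not pass it with all genes kept in the test, with a replicate block or without both replicates numbered 4.

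The other small HSPs among the members followed no common direction. Hspb8, a partner of the co-chaperone BAG3 in the removal of damaged filamin, was at 191, 199 and 990.5 CPM in the control libraries and 141, 219.9, 185 and 273 CPM in the EPS libraries. The control library numbered 4 stood far above the rest, and the other 6 libraries overlapped. The log2 difference was -0.75 ± 0.54 (SE, adjusted p = 0.646 in limma) with that library and 0.031 without it. Hspb7, a small HSP of heart and skeletal muscle, was at 71.2, 67.8 and 143 CPM in the control libraries and 66.1, 114, 102 and 60.4 CPM in the EPS libraries. Its highest value was again in control replicate 4, and the log2 difference changed from -0.10 to 0.24 without that library. Hspb2, another muscle member, also peaked there, at 86.5 CPM against 38.3 to 68.3 CPM elsewhere. The part of whatever sets control replicate 4 apart in these values was not tested.

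Of the less abundant small HSPs, Hspb6, or HSP20, was at 10.4 ± 3.56 CPM over the 3 control libraries and 18.2 ± 5.26 CPM over the 4 EPS libraries (mean ± SD), and Hspb11 at 9.29 ± 2.09 CPM over the 3 control libraries and 16.3 ± 5.88 CPM over the 4 EPS libraries (mean ± SD). Their log2 differences were 0.75 (adjusted p = 0.377 in limma) and 0.72 (adjusted p = 0.394 in limma), and in both the groups overlapped. Hspb11 carries the family's symbol but is also known as IFT25, a subunit of the intraflagellar transport complex. Hspb3 did not exceed 7.89 CPM. Over the 7 members the median log2 difference was 0.0013, and it was below 0 under quantile normalization (-0.099) and median-of-ratios scaling (-0.11). The summed level of these 7 members, most of it Hspb8 and Hspb1, was 438, 488 and 1355 CPM in the control libraries and 495, 954, 639.6 and 1098 CPM in the EPS libraries. Cryab, a small HSP that the symbols leave out, had a higher mean than any of them, at 464 CPM over the 7 libraries. Its log2 difference was 0.81, with overlapping groups, and it is given below with the targets of HSF1.

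The HSP110 proteins are the nucleotide exchange factors of HSP70. Hsph1 (chr5:149614287-149636376, - strand), the stress-inducible member, was at 159, 112 and 109 CPM in the control libraries and 238, 225, 271 and 375 CPM in the EPS libraries. The groups did not overlap, and the highest EPS value was in replicate 4. The mean was 2.19-fold higher in the EPS group, with a log2 difference of 1.12 ± 0.22 (SE), with P = 0.000767 and adjusted p = 0.0973 in limma and an exact permutation p of 0.0286, the smallest p that 3 against 4 libraries can give. Without EPS replicate 4 the difference was 0.96, which is under the 2-fold threshold, and it was 1.02 to 1.29 when any other library was left out. Hsph1 also missed the threshold with a replicate block and without both replicates numbered 4.

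Hspa4l, a close relative known for its induction by heat and osmotic stress, was at 138, 119 and 97.4 CPM in the control libraries and 180.4, 176, 196 and 204 CPM in the EPS libraries. The EPS libraries were close to each other and all above the control libraries. Its log2 difference was 0.69 ± 0.16 (SE), with P = 0.00201 and adjusted p = 0.138 in limma and an exact permutation p of 0.0286. Hspa4, the third and most abundant of these genes in CPM, was at 434, 278 and 380.1 CPM in the control libraries and 389, 266, 381 and 429 CPM in the EPS libraries. The groups overlapped throughout and the log2 difference was 0.0093 ± 0.23 (SE). Per kb of exon, Hspa4 stood at 65.9 and 66.2 CPM in the control and EPS groups, Hsph1 at 17.4 and 38.2 and Hspa4l at 10.02 and 16.0.

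**Figure D2:**
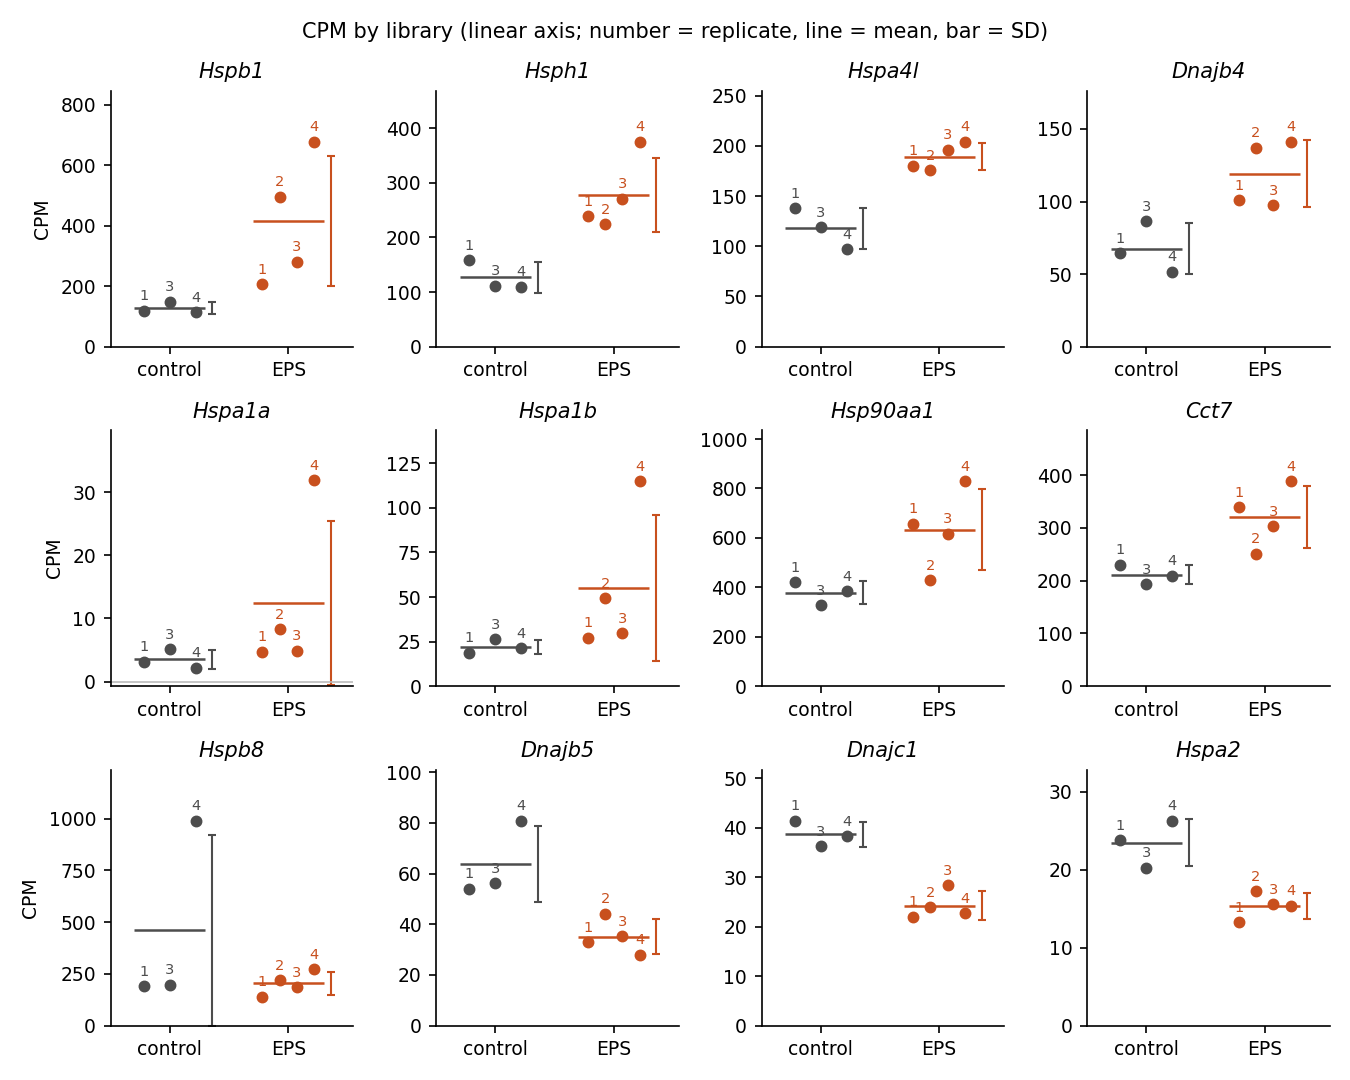
CPM (linear axes from 0, or lower where the SD bar passes 0) of 12 members in each library. Points are libraries labelled with their replicate number, horizontal lines are group means and bars SDs (n = 3 control, n = 4 EPS); the groups do not overlap except in Hspa1a and Hspb8, and Hspb8 is set apart by control replicate 4 at 990.5 CPM.

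In the HSP70 family, the pair Hspa1a (chr17:34969190-34972156, - strand) and Hspa1b (chr17:34956436-34959238, - strand) encodes the stress-inducible HSP70. Their longest open reading frames, 1926 and 1929 bases, are 99.43% identical, and how reads that fit both genes were counted is not given in the sources used here, so the division of reads between them is uncertain. Hspa1a was at 3.15, 5.12 and 2.22 CPM in the control libraries and 4.75, 8.28, 4.89 and 31.9 CPM in the EPS libraries. Hspa1b was at 18.8, 26.5 and 21.3 CPM in the control libraries and 27.1, 49.4, 29.7 and 115 CPM in the EPS libraries. In both genes EPS replicate 4 was more than 2-fold above every other library, and EPS replicate 2 was the next highest.

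The log2 difference of Hspa1a was 1.22 ± 0.59 (SE), with P = 0.0712 and adjusted p = 0.475 in limma and an exact permutation p of 0.314, and its groups overlapped. For Hspa1b, whose groups did not overlap, it was 1.04 ± 0.45 (SE), with P = 0.0452 and adjusted p = 0.416 in limma and an exact permutation p of 0.171. Without EPS replicate 4 the differences were 0.65 and 0.61. Summed over the pair, which does not depend on how the counted reads were divided between them, the levels were 21.9, 31.6 and 23.6 CPM in the control libraries and 31.8, 57.7, 34.6 and 147 CPM in the EPS libraries. Every EPS sum lay above every control sum, the lowest EPS value by a small margin. On the recovered reads, edgeR called both genes (P under 0.01 and more than 2-fold) and DESeq2 called Hspa1b.

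The constitutive HSP70 genes gave another picture. Hspa8, the main cytosolic HSP70 of unstressed cells, was at 1014, 767 and 1103 CPM in the control libraries and 1267, 675, 946 and 1333 CPM in the EPS libraries. Control and EPS libraries were interleaved, and the log2 difference of 0.10 ± 0.31 (SE) equalled the median of genes of at least 1 CPM to 2 decimals. Hspa9, the mitochondrial HSP70 mortalin, was at 586 ± 33.6 CPM over the 3 control libraries and 568 ± 64.8 CPM over the 4 EPS libraries (mean ± SD), with a log2 difference of -0.052 ± 0.19 (SE). Hspa13, a microsomal HSP70-like protein, was at 98.4 ± 23.4 CPM over the 3 control libraries and 101 ± 8.35 CPM over the 4 EPS libraries (mean ± SD), with 0.065 ± 0.18 (SE). None of these 3 passed the test, and the sign of each changed under at least 1 of the other settings. Per kb of exon, Hspa8 was at 224 and 245 CPM in the control and EPS groups, Hspa9 at 136 and 132, Hspa1b at 7.92 and 19.7 and Hspa1a at 1.18 and 4.20. The levels of Hspa1a and Hspa1b are uncertain and may be too low, since reads that fit both genes may not have been counted.

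Hspa2, a relative of the inducible genes that is best known from male germ cells, was the only HSP70 gene with all EPS libraries below the control libraries. It was at 23.8, 20.3 and 26.3 CPM in the control libraries and 13.3, 17.3, 15.6 and 15.4 CPM in the EPS libraries. The log2 difference was -0.58 ± 0.18 (SE), with P = 0.0128 and adjusted p = 0.263 in limma and an exact permutation p of 0.0286. Its longest open reading frame shares 78.76% of its bases with that of Hspa1a. The other members of the family, Hspa12a, Hspa12b, Hspa14 and Hspa1l, had log2 differences of 0.020 to 0.41, and in each the groups overlapped. Over all 10 HSP70 genes, 8 were higher in mean and 2 lower, with a median of 0.21; under median-of-ratios scaling 5 were higher and 5 lower.

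HSP90 was represented by 3 genes. Hsp90aa1, the inducible cytosolic form, was at 421, 329 and 384 CPM in the control libraries and 658, 428, 618 and 829 CPM in the EPS libraries. EPS replicate 4 was highest, and EPS replicate 2 lay just above the highest control library. The log2 difference was 0.71 ± 0.25 (SE), with P = 0.0195 and adjusted p = 0.307 in limma and an exact permutation p of 0.0571. Hsp90ab1, the constitutive cytosolic form, was at 2338, 1766 and 1610.2 CPM in the control libraries and 2569, 1867, 2846 and 2795 CPM in the EPS libraries. Here EPS replicate 2 lay among the control libraries, and the log2 difference was 0.40 ± 0.38 (SE, adjusted p = 0.737 in limma).

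Hsp90b1, the form of the endoplasmic reticulum known as GRP94, was at 541 ± 79.8 CPM over the 3 control libraries and 486 ± 35.8 CPM over the 4 EPS libraries (mean ± SD), with overlapping groups and a log2 difference of -0.15 ± 0.19 (SE). Hsp90ab1 had the highest level per length of the 69 members with a known length, at 635 and 840.1 CPM per kb of exon in the control and EPS groups. Hsp90aa1 was at 96.1 and 161 and Hsp90b1 at 134 and 121. The cytosolic forms had higher means in the EPS group and the reticulum form a lower one, each also under quantile normalization, median-of-ratios scaling, edgeR and DESeq2, but without control replicate 3 the difference of Hsp90b1 was -0.030.

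All 10 chaperonin genes, including the mitochondrial pair Hspd1 and Hspe1, had higher means in the EPS group, with log2 differences from 0.21 to 0.59 and a median of 0.37, and all 10 stayed higher under quantile normalization, median-of-ratios scaling, edgeR and DESeq2. None was a DEG in limma, edgeR or DESeq2, and 1, Cct7, had an unadjusted P under 0.05 in limma. Cct7, a subunit of the CCT ring, was at 230.3, 194 and 209 CPM in the control libraries and 339, 251, 303 and 388 CPM in the EPS libraries. The groups did not overlap, and the log2 difference was 0.59 ± 0.18 (SE), with P = 0.0117 and adjusted p = 0.253 in limma and an exact permutation p of 0.0571.

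In Cct2, Cct3 and Cct5, further subunits of the ring, the EPS libraries also lay above the control libraries. Cct5 was at 328, 335 and 284 CPM in the control libraries and 423, 352, 366 and 493 CPM in the EPS libraries, with EPS replicate 4 highest. In Cct3 the margin was small, since the lowest EPS value was 276 CPM and the highest control value 274 CPM. Cct4, Cct6a and Cct8 had overlapping groups because of control replicate 3, which was at 368, 211 and 397 CPM. Their log2 differences were 0.37, 0.46 and 0.43. Without control replicate 3 these became 0.54, 0.62 and 0.59, and without control replicate 4 they became 0.16, 0.32 and 0.28. Cct3 likewise went from 0.37 to 0.21 without control replicate 4, and Hspd1 from 0.21 to -0.0074 without EPS replicate 4. Tcp1, which encodes the CCT subunit that the symbols leave out, had a log2 difference of 0.40 ± 0.21 (SE) with overlapping groups.

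Summed over the 7 CCT genes other than the low Cct6a-2, the level was 1821, 1989.6 and 1494 CPM in the control libraries and 2362, 2218, 2040.4 and 2749.8 CPM in the EPS libraries. On the deposited CPM every EPS library lay above every control library, but EPS replicate 3 exceeded control replicate 3 by only a small margin. Control replicate 4 was lowest and EPS replicate 4 highest. This sum was not recomputed under the other scalings. In the mitochondrion, Hspd1, or HSP60, was at 216, 198 and 201 CPM in the control libraries and 252, 180.4, 186 and 371 CPM in the EPS libraries. Its lid protein Hspe1, or HSP10, was at 63.4, 76.5 and 139 CPM in the control libraries and 121, 126, 78.4 and 183 CPM in the EPS libraries. In both, EPS replicate 4 was highest and the groups overlapped, and the log2 differences of 0.21 ± 0.25 and 0.47 ± 0.33 (SE) did not pass the test.

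**Figure D3:**
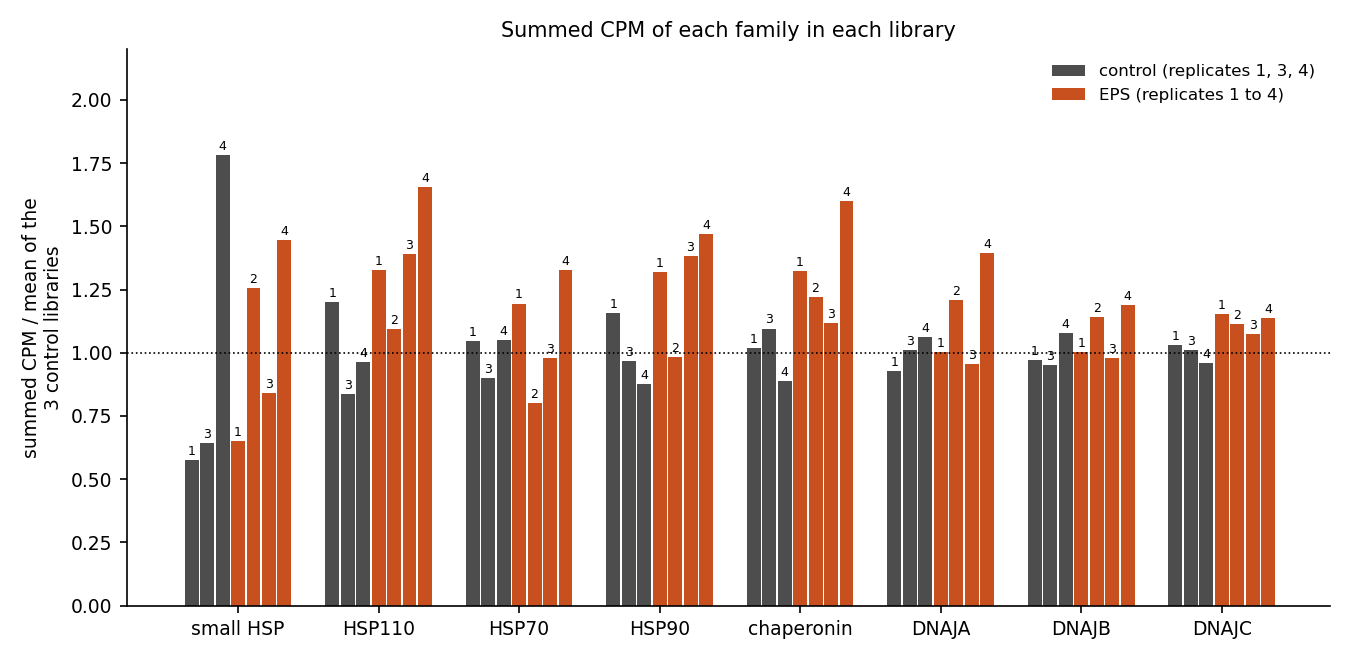
Summed CPM of each family in each library, divided by the mean of the 3 control libraries (bars from 0, labelled with the replicate number, control dark and EPS orange). EPS replicate 4 is the highest bar in HSP110, HSP70, HSP90, the chaperonins, DNAJA and DNAJB, while control replicate 4 is the highest in the small HSPs.

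J proteins bring clients to HSP70 and start its ATP hydrolysis. In class DNAJA, Dnaja1 and Dnaja2 serve the cytosolic HSP70s and Dnaja3 the mitochondrial one. Dnaja1 was at 173, 196 and 175 CPM in the control libraries and 224, 235, 169 and 332 CPM in the EPS libraries, with EPS replicate 4 highest and EPS replicate 3 below the controls. Dnaja2 was at 418 ± 37.9 CPM over the 3 control libraries and 445 ± 59.9 CPM over the 4 EPS libraries (mean ± SD) and Dnaja3 at 55.8 ± 8.58 CPM over the 3 control libraries and 57.5 ± 8.15 CPM over the 4 EPS libraries (mean ± SD). The log2 differences were 0.36 ± 0.22, 0.083 ± 0.18 and 0.045 ± 0.17 (SE), none past the test, and the last of these and Dnaja2 were below 0 under median-of-ratios scaling. Dnaja1 was at 0.19 without EPS replicate 4, and Dnaja2 at 0.017 without control replicate 1. Dnaja4 had overlapping groups and a log2 difference of 0.28, which was 0.10 without EPS replicate 4 and 0.44 without EPS replicate 1.

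Class DNAJB held 2 genes with P under 0.01 in limma, in opposite directions. By the same test 798 of all 19144 tested genes had P under 0.01, and 523 of the 12256 genes of at least 1 CPM. Dnajb4, an HSP40 related to the heat-inducible Dnajb1, was at 64.4, 86.4 and 51.7 CPM in the control libraries and 101, 137, 97.3 and 141 CPM in the EPS libraries. All EPS libraries lay above the control libraries, and the log2 difference was 0.82 ± 0.22 (SE), with P = 0.00453 and adjusted p = 0.186 in limma and an exact permutation p of 0.0286. It passed 2-fold without control replicate 3, at 1.01. Dnajb5, another relative of Dnajb1, was at 54.0, 56.3 and 80.8 CPM in the control libraries and 32.9, 44.2, 35.2 and 27.9 CPM in the EPS libraries. All EPS libraries lay below the control libraries, of which replicate 4 was highest, and the log2 difference was -0.84 ± 0.21 (SE), with P = 0.00304 and adjusted p = 0.16 in limma and an exact permutation p of 0.0286.

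Dnajb1 itself, the classical HSP40 partner of inducible HSP70, was at 84.3, 91.3 and 94.8 CPM in the control libraries and 113, 86.1, 78.9 and 173 CPM in the EPS libraries. Only EPS replicates 1 and 4 lay above the controls, and the log2 difference was 0.25 ± 0.26 (SE), or 0.023 without EPS replicate 4. Dnajb6, a J protein of the muscle Z disc, was at 116 ± 11.2 CPM over the 3 control libraries and 132 ± 12.5 CPM over the 4 EPS libraries (mean ± SD), with a log2 difference of 0.18 ± 0.14 (SE). Dnajb11, a co-chaperone of the HSP70 of the endoplasmic reticulum, was at 148 ± 22.5 CPM over the 3 control libraries and 131 ± 6.17 CPM over the 4 EPS libraries (mean ± SD), with -0.17 ± 0.15 (SE), which was -0.068 without control replicate 4 and -0.29 without control replicate 3. Neither passed the test. Over the 9 members, 6 had higher and 3 lower means, with a median of 0.22, and these counts held under all 4 other scalings and tools.

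Class DNAJC, the largest, had 24 members with varied partners. Its median log2 difference was 0.18, with 19 members higher in mean and 5 lower, against 14 and 10 under quantile normalization. Dnajc1, a J protein of the membrane of the endoplasmic reticulum, was at 41.5, 36.3 and 38.3 CPM in the control libraries and 22.02, 23.9, 28.5 and 22.7 CPM in the EPS libraries. The groups were well apart, with the EPS libraries below, and the log2 difference was -0.65 ± 0.16 (SE), with P = 0.00258 and adjusted p = 0.152 in limma and an exact permutation p of 0.0286. It stayed between -0.73 and -0.61 when any 1 library was left out.

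Dnajc9, a J protein that also carries histones H3 and H4, was at 21.7, 23.3 and 25.7 CPM in the control libraries and 34.0, 34.3, 26.8 and 56.8 CPM in the EPS libraries. The EPS libraries lay above the control libraries, and EPS replicate 4, which also had the highest sum of the myoblast and dividing-cell markers, stood out. Its log2 difference was 0.61 ± 0.24 (SE, adjusted p = 0.375 in limma), and 0.41 without that library. The part of dividing cells in this value was not tested. Dnajc12, a co-chaperone of the aromatic amino acid hydroxylases, was expressed at a low level. It was at 1.87, 2.47 and 2.98 CPM in the control libraries and 3.26, 7.79, 3.88 and 4.94 CPM in the EPS libraries. The groups did not overlap, and the log2 difference was 0.75 ± 0.30 (SE, adjusted p = 0.377 in limma).

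The 3 most abundant DNAJC genes in CPM were Dnajc10, a disulfide reductase of the endoplasmic reticulum, Dnajc13, which acts in endosome sorting, and Dnajc5, the cysteine string protein of secretory vesicles. Their log2 differences were 0.21 ± 0.20, 0.045 ± 0.22 and 0.22 ± 0.18 (SE), with overlapping groups. Without control replicate 4, Dnajc10 was at 0.029 and Dnajc5 at 0.042. Dnajc14 was the remaining member with all EPS libraries above the control libraries, with means of 82.1 and 89.4 CPM and a log2 difference of 0.12. The DNAJC genes not named so far had overlapping groups.

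The EPS libraries differed among themselves in these genes. EPS replicate 4 was the highest EPS library in 33 of the 70 members, or 47.1%, against 21.8% of genes of at least 1 CPM. EPS replicate 2 was the highest in 34.3% of members and the lowest in 21.4%, against 41.9% and 23.2% of genes of at least 1 CPM. Replicate 2 came second to replicate 4 in Hspb1, Hspa1a and Hspa1b, but was the lowest EPS library in Hsp90aa1, Hsp90ab1, Hspa8 and Cct7. Summed over all 70 members, the level was 10985, 10199 and 10777 CPM in the control libraries and 12695, 11349.9, 12103 and 15103 CPM in the EPS libraries. All 4 EPS sums lay above the control sums on the deposited CPM, the lowest by a small margin (11349.9 against 10985 CPM). These sums were not recomputed under the other scalings. Hsp90ab1 alone gave 2256 CPM of the summed level in the mean over 7 libraries.

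The log2 differences of many members changed in relative size when single libraries were left out. In 48 of the 70 the value moved by over 1.5 times or changed sign when some single library of the 7 was omitted. A difference near 0, such as that of Hspa4 (0.0093), crosses this limit easily, so the count also reflects small differences. The same count was not made over all genes. Of the 33 members described in full, 13 stayed within 1.5 times whichever library was omitted. They were Hspb1, Hsph1, Hspa4l, Hsp90aa1, Hsp90ab1, Cct5, Cct7, Hspa2, Dnajb4, Dnajb5, Dnajb6, Dnajc1 and Dnajc12.

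**Figure D4:**
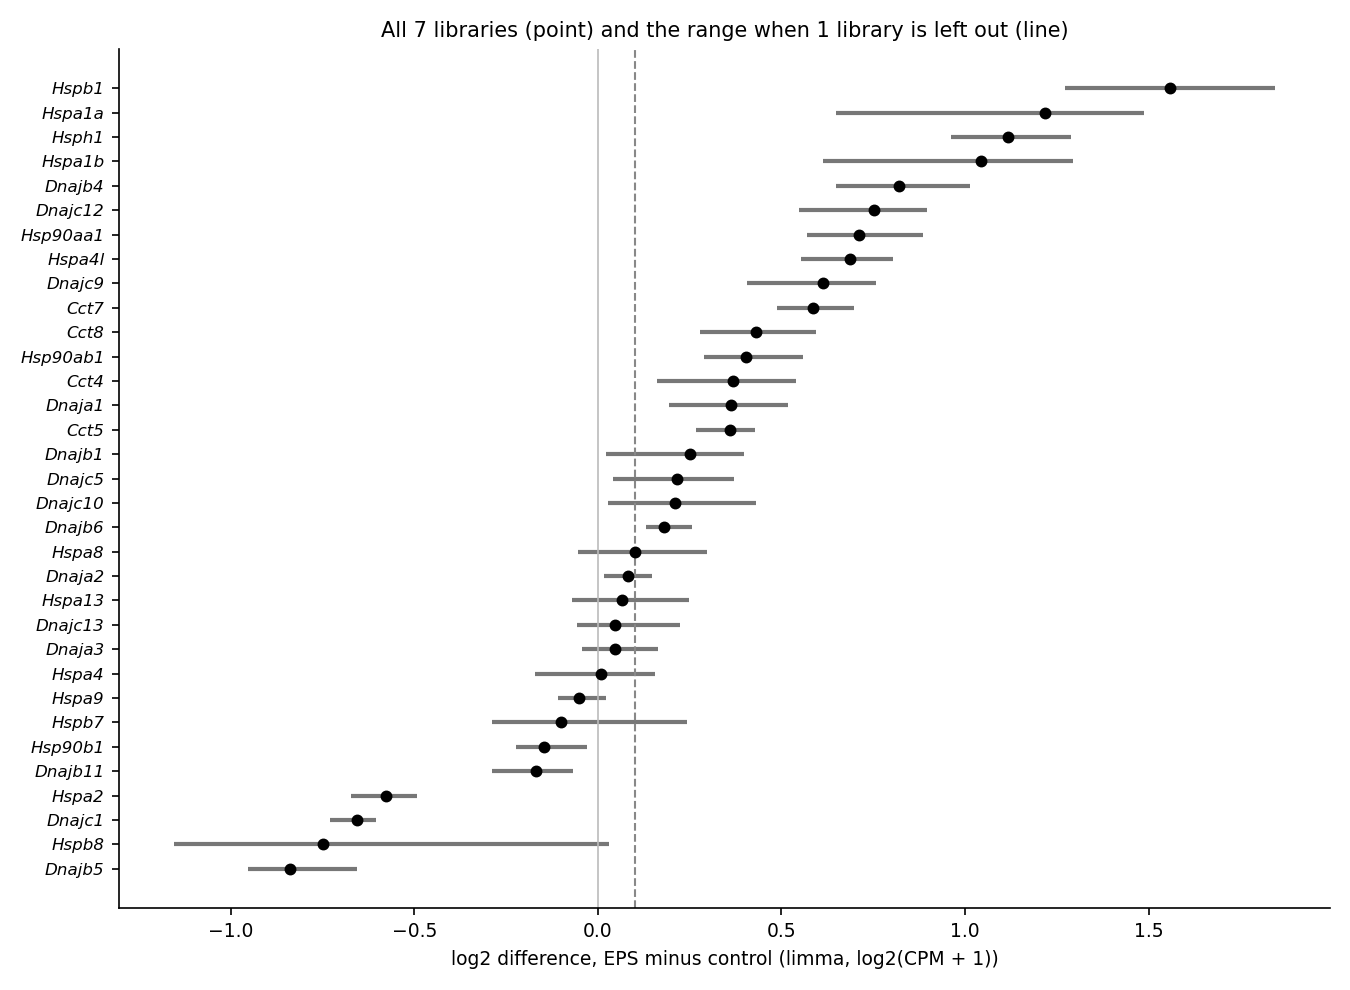
Log2 difference (EPS minus control, limma on log2(CPM + 1)) of the 33 members named by rule, with all 7 libraries (points) and as the range over the 7 fits that leave out 1 library each (lines). The dashed line is the median of all genes of at least 1 CPM (0.10); Hspb1 stays above 1.27, while the line of Hspb8 runs from -1.15 to 0.031.

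HSF1 binds the heat shock element, an array of GAA units in alternating orientation. The 250 bases before the RefSeq start sites (GRCm38.p6) were searched for a pair of facing or diverging units, GAANNTTC or TTCNNGAA. Each form is its own reverse complement, so both strands are covered, and the forms can overlap. Promoters were found for 56 of the 70 members by symbol. The members not found, among them Hsp90aa1, Hsp90ab1 and Hspa8, were not searched. A gene with several start sites was counted if any of them had a match, as in Dnajb4. At least 1 match lay in 16 of these 56, or 28.6%, against 14.5% of 27025 genes. An array of 3 units, GAANNTTCNNGAA or TTCNNGAANNTTC, lay in 3 members (Hspd1, Hspe1 and Dnajb6) and in 0.514% of all genes. The windows of Hspd1 and Hspe1 overlap on opposite strands and hold the same array, so these 3 members have 2 separate arrays. A match is a description of these letters and not a bound site.

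The sequences of 5 of these promoters are shown because they belong to Hspb1 and Hsph1, the 2 up-regulated members, to the inducible pair Hspa1a and Hspa1b, and to Hspe1, which has the 3-unit array. Capitals mark the matches, and each sequence ends at the base before the start site. The windows are chr5:135887669-135887918, + strand for Hspb1, chr17:34972157-34972406, - strand for Hspa1a, chr17:34959239-34959488, - strand for Hspa1b, chr5:149636337-149636586, - strand for the first listed start of Hsph1 and chr1:55087898-55088147, + strand for Hspe1.
Hspb1: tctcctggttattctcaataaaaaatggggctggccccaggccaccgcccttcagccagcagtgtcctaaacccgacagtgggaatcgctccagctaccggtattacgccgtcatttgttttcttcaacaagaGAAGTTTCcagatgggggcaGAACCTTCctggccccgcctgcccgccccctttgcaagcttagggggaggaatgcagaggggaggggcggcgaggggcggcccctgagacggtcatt
Hspa1a: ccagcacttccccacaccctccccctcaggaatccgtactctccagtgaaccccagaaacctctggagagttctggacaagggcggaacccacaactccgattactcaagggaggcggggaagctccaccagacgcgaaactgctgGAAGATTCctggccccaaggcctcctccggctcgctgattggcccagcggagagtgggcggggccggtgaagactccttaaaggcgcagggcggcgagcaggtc
Hspa1b: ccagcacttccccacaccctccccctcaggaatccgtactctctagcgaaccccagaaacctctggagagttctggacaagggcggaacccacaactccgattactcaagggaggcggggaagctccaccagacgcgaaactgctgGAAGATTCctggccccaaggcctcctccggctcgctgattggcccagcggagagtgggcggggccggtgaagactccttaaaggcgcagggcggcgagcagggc
Hsph1: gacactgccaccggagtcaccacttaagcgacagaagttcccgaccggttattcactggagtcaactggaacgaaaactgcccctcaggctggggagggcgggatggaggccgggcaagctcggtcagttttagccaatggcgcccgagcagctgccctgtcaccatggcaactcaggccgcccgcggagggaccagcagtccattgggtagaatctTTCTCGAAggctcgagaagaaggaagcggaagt
Hspe1: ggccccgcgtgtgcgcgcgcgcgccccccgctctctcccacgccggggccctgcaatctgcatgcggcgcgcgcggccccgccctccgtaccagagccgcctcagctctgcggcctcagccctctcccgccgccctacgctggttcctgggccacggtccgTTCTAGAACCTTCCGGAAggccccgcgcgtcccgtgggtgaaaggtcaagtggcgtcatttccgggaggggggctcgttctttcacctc
Hspb1 has 2 matches, beginning 117 and 97 bases before the start site. Hspa1a and Hspa1b have 1 each, at 104 bases, and their windows are identical at 247 of 250 bases. Hsph1 has 1, at 33 bases, and Hspe1 has 3 that overlap, from 89 bases on.

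The 16 members with a match had a median log2 difference of 0.36, with 15 higher in mean and 6 whose EPS libraries all lay above the control libraries. In the 40 members without a match the median was 0.14, with 29 higher in mean, 5 with all EPS libraries above and 3 with all below. Of all tested genes, 7.76% had all EPS libraries above and 2.85% all below. Of genes of at least 1 CPM 63.6% were higher in mean, and of all members 80%. The longer array gave no such order, since the 3 members with it had a median of 0.21 and none without overlap, while the 53 without it had a median of 0.26, with 11 all above and 3 all below. These values are a description, since related genes share promoter sequence and were listed with earlier results known. Differences of other genes that carry a match were not compared. No match lay in the windows of Hspa4l, Dnajb1, Dnajb5, Dnajc1, Hspa2, Hspb8 or Cct7, which says only that these letters are absent from these bases.

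The wider chaperone system was followed through 66 further genes, of which 64 had a mean of at least 1 CPM. Of the 66, 44 (66.7%) had higher and 22 lower means, with a median log2 difference of 0.14, and none was a DEG in limma on the deposited CPM. By that test 8 (12.1%) had an unadjusted P under 0.05. Both shares are close to those of all tested genes, 63.3% and 11.6%. Quantile normalization and median-of-ratios scaling before limma, and edgeR and DESeq2, each called 1 gene, Itgb1bp2, which encodes melusin, a muscle protein that binds HSP90. It was at 96.1, 98.1 and 125 CPM in the control libraries and 52.9, 62.4, 47.9 and 55.3 CPM in the EPS libraries. All EPS libraries lay below the control libraries, and the log2 difference was -0.95 ± 0.16 (SE), with P = 0.000211 and adjusted p = 0.0712 in limma and an exact permutation p of 0.0286.

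Stub1, the ubiquitin ligase CHIP that tags clients of HSP70 for degradation, was at 24.8, 21.5 and 23.8 CPM in the control libraries and 37.3, 30.2, 33.1 and 34.8 CPM in the EPS libraries. All EPS libraries lay above the control libraries, with a log2 difference of 0.51 ± 0.15 (SE), with P = 0.0086 and adjusted p = 0.231 in limma and an exact permutation p of 0.0286. Hsf1, the transcription factor itself, was at 54.5, 53.4 and 47.7 CPM in the control libraries and 56.8, 60.9, 50.6 and 51.4 CPM in the EPS libraries. The groups overlapped and the log2 difference was 0.079 ± 0.14 (SE), below 0 under quantile normalization (-0.0062) and median-of-ratios scaling (-0.032). The 6 BAG genes, which encode exchange factors of HSP70, had a median of 0.0092, and no BAG gene had P under 0.05.

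A list of 24 genes known as heat-inducible targets of HSF1, 13 of them members, had 21 genes higher in mean and a median log2 difference of 0.50. Its sum was 4172, 3973 and 5254 CPM in the control libraries and 5346, 5223, 4767 and 7457 CPM in the EPS libraries. EPS replicate 4 was highest, and EPS replicate 3 lay below control replicate 4. Of the 24 genes, 2 were DEGs (Hspb1 and Hsph1), beside 0.966% of all tested genes called higher. All EPS libraries lay above the control libraries in 9 (37.5%) and below them in 1 (4.17%), against 7.76% and 2.85% of all tested genes. Among targets that are not members, Cryab, the small HSP αB-crystallin, was at 261, 420.2 and 263 CPM in the control libraries and 346, 856, 418 and 684 CPM in the EPS libraries. EPS replicates 2 and 4 were highest, as in Hspb1, and the groups overlapped (log2 difference 0.81 ± 0.34, SE). Ahsa1, which stimulates the ATPase of HSP90, had no overlap between its groups and a log2 difference of 0.59 ± 0.20 (SE), and Ubb, a polyubiquitin gene, likewise had 0.49 ± 0.16 (SE). Serpinh1, the collagen chaperone HSP47, was at 426, 418 and 514 CPM in the control libraries and 363, 301, 299.7 and 346 CPM in the EPS libraries. It was the target whose EPS libraries all lay below the control libraries, with a log2 difference of -0.46 ± 0.17 (SE).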

How the data were processed

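RNA-seq was performed on C2C12 myotubes, 3 control and 4 EPS samples. Per the labels and the study's methods, poly(A) RNA was made into directional paired-end libraries and mapped with STAR 2.5.4b to the GRCm38 genome. CPM of 26607 genes, named by symbol, were deposited by the authors. The read counter, annotation and strand setting are not given in the sources used here, so values of overlapping, antisense or near-identical genes are uncertain. In each library 100% of values were whole multiples of 1 read (within 0.1 read), and whole reads were recovered.

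The members and lists were chosen with earlier results of these data known. The 19144 genes with a read in any library entered the test on log2(CPM + 1) with limma 3.58.1 in R 4.3.3 (empirical Bayes with a mean-variance trend), EPS against control, all 7 libraries, no covariate, Benjamini-Hochberg adjustment over all of them. Fold changes on this scale understate the change of low genes. For single genes the difference in mean CPM was also permuted (exact test, two-sided) over all 35 splits, whose smallest p is 0.0286. The thresholds (P under 0.01, 2-fold) are those of a DEG. The fits were tested on simulated data. Coordinates and exon lengths are from GENCODE M21 (69 of 70 members matched). Intervals for depth cover counting error only, as reads are not independent molecules; 3 reads are 0.136 to 0.181 CPM.

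The genes described in full are members with P under 0.01, members without overlap and with a log2 difference of at least 0.5, the 3 most abundant in CPM of each family, Hspa1a and Hspa1b, Hsf1 and genes of the wider list with P under 0.01. Other genes named were chosen after their values were seen. Alternatives were no filter or a minimum mean of 1 CPM, pseudocounts of 0.1 and 0.5, quantile normalization, median-of-ratios scaling, edgeR 4.0.16 and DESeq2 1.42.0 on the recovered reads, a replicate block, P under 0.001, and leaving out each library. Leaving out both libraries numbered 4 was added after seeing the data. The quantitative PCR, protein and animal data were not used here.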

Additional observations from a re-analysis of the deposited data

Results flagged for a closer look

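Of the 36 genes checked on a log2 scale for a library far from its group, 1 was found, Dnajb11 in the EPS group. The check was run on the 4 EPS libraries only, and the control group was not checked. In CPM, which the check did not use, Hspa1a in EPS replicate 4 also lay far from its group. It was at 31.9 CPM there, against 4.75 to 8.28 CPM in the other EPS libraries. Dnajb11 was at 139.8 CPM in EPS replicate 2 and at 127 to 128 CPM in the other 3 EPS libraries. Chance picks out about 1 in 20 such groups. The control libraries of this gene ran from 124 to 169 CPM and enclosed that value.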

How the results depend on the processing

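The median log2 difference of the 70 members stayed above that of genes of at least 1 CPM under each alternative that refitted the data. The excess was 0.15 with all libraries, 0.056 without both libraries numbered 4 and 0.11 to 0.19 under the others. The number of up-regulated members, 2, became 1 without a filter on low values, 4 with edgeR (Hspa1a and Hspa1b added), 3 with DESeq2 (Hspa1b added), 0 with the replicate block, 1 at P under 0.001, 0 without both libraries numbered 4, and 1 (without EPS replicate 4) to 3 (without control replicate 3) when 1 library was left out. Over all tested genes, 185 of 19144 were called higher in the main fit, and 112 of 26607 without a filter on low values. With the replicate block this was 99 of 19144, and without both libraries numbered 4 it was 139 of 18823. When 1 library was left out, 140 to 232 genes were called higher, of 18869 to 19090 tested. The number of down-regulated members, 0, became 1 with edgeR (Hspb8), and none was called when 1 library was left out. Members with an adjusted p under 0.05, 0, became 1 with a minimum mean of 1 CPM (Hsph1), 3 with edgeR and 5 with DESeq2. The last 2 test the recovered reads and not log2(CPM + 1). Over all genes with an adjusted p, 27 of 19144 were under 0.05 in the main fit and 121 of 12256 with the minimum of 1 CPM. The counts were 290 of 19144 with edgeR and 503 of 14305 with DESeq2. The 66 further chaperone genes held 1 call (Itgb1bp2) under quantile normalization, median-of-ratios scaling, edgeR, DESeq2 and the replicate block, and 0 to 1 when 1 library was left out. Members with all EPS libraries above the control libraries, 13, became 10 under quantile normalization, 6 under median-of-ratios scaling, 13 to 23 when 1 library was left out (20 or more without any 1 control library or EPS replicate 3) and 22 without both libraries numbered 4. The shares of all tested genes were 4.99%, 5.4%, 9.76% to 16.2% and 15.9%. Those with all below, 3, became 4, 5, 3 to 5 and 6, where the shares of all tested genes were 4.46%, 4.48%, 3.44% to 6.55% and 7.74%. The shares of all tested genes include genes under 1 CPM, which the members do not. Fewer libraries make non-overlap easier to reach. The log2 difference shrank by over 1.5 times or changed sign in 20 members without control replicate 4 and in 19 without EPS replicate 4. Without any other 1 library this held in 6 to 13 members. Differences near 0 cross this limit easily, and these counts were not made over all genes.

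Of the 70 members, 9 changed sign under quantile normalization, 12 under median-of-ratios scaling, 10 with edgeR, 11 with DESeq2, 5 with the replicate block, 8 without both libraries numbered 4 and 4 to 10 when 1 library was left out, and the cause was not tested. Members not described in full account for 6, 6, 5, 6, 4, 4 and 2 to 6 of these. Under the 4 scalings and tools they were Dnajc3, Dnajc24, Dnajc27, Hspa1l and Hspb2, joined by Dnajc17 except with edgeR. Among the genes described in full, those under quantile normalization were Dnaja3 (-0.045), Dnajc13 (-0.025), Hspa4 (-0.037) and Hsf1 (-0.0062). Under median-of-ratios scaling they were Dnaja2 (-0.030), Dnaja3 (-0.066), Dnajc13 (-0.067), Hspa4 (-0.10), Hspa8 (-0.012), Hspa13 (-0.047) and Hsf1 (-0.032). With edgeR they were Dnaja2 (-0.016), Dnaja3 (-0.058), Dnajc13 (-0.040), Hspa4 (-0.088), Hspa13 (-0.055) and Hsf1 (-0.020), and with DESeq2 Dnaja2 (-0.028), Dnaja3 (-0.070), Dnajc13 (-0.053), Hspa4 (-0.10), Hspa13 (-0.067) and Hsf1 (-0.033). Without both libraries numbered 4 they were Dnajc13 (-0.018), Hspa4 (-0.032), Hspa13 (-0.080) and Hspb7 (0.39). When 1 library was left out, the ranges were -0.044 to 0.17 for Dnaja3, -0.057 to 0.22 for Dnajc13, -0.17 to 0.16 for Hspa4, -0.054 to 0.30 for Hspa8, -0.11 to 0.023 for Hspa9, -0.071 to 0.25 for Hspa13, -1.15 to 0.031 for Hspb8 and -0.29 to 0.24 for Hspb7.

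The replicate block also moved Hspa9 to 0.023. Libraries with the same number deviated from their group means together with r of 0.25, -0.45 and 0.068 for numbers 1, 3 and 4 across 12256 genes, and only number 4 matched its own partner best, so the numbers were not taken as pairs. Depth limits the lowest members: Cct6a-2 lay at 2.03 CPM in the mean, with 21 to 51 reads.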

Other observations

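Control replicate 4 was more than 2-fold above every other library in 239 of the 12256 genes of at least 1 CPM, or 1.95%, against 0 to 39 genes for each other library. Hspb8 was the member among them, and Fkbp8 and Hspbp1, co-chaperones of HSP90 and HSP70, were the genes of the wider chaperone list. Fkbp8 was at 161, 168 and 655 CPM in the control libraries and 208, 170.0, 188 and 187 CPM in the EPS libraries. Hspbp1 was at 23.5, 23.9 and 97.0 CPM in the control libraries and 30.9, 28.2, 25.9 and 32.2 CPM in the EPS libraries. In both genes the other 6 libraries lay close together.

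EPS replicate 4 was more than 2-fold above every other library in 29 of those genes, or 0.237%, among them the members Hspa1a and Hspa1b. The same library had the highest CPM of the dividing-cell markers Mki67, at 131, 103 and 90.0 CPM in the control libraries and 391, 124, 205 and 452 CPM in the EPS libraries, and Ccnb1, at 17.1, 37.9 and 11.4 CPM in the control libraries and 49.6, 46.5, 33.3 and 100.1 CPM in the EPS libraries. In Ccnb1 as in Mki67 the EPS values were spread widely. Myod1, a factor of the muscle lineage on the same marker list, was lowest in that library, at 136, 99.8 and 160.1 CPM in the control libraries and 59.2, 93.9, 88.8 and 48.0 CPM in the EPS libraries. Ddit3, a gene of the stress response of the endoplasmic reticulum, was at 12.7, 11.5 and 7.82 CPM in the control libraries and 19.8, 17.3, 9.96 and 23.9 CPM in the EPS libraries, with its highest value in that library and overlapping groups.

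Of the 11 genes of these families below a mean of 1 CPM, Dnajb8 was at 0 reads in all 7 libraries, which allows up to 0.136 to 0.181 CPM per library. The highest mean among them was 0.535 CPM, for Dnajc22. The members just above that level were Cct6a-2 at 2.03 CPM, Hspa12b at 3.01 CPM and Hspa1l at 3.56 CPM.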
